A study of Mus musculus with 10 samples.

Results

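The genes described here are 33 stress and activation genes, measured in RNA sequencing libraries of innate lymphoid cells (ILCs), tissue lymphocytes without rearranged antigen receptors, from the skin of adult B6 mice. They comprise 21 immediate early genes (the FOS, JUN, EGR and NR4A families, Ier2, Ier5, Atf3, Maff, Myc, Btg2, Zfp36 and Zfp36l1) and 12 heat shock or chaperone genes. The members were a list of gene symbols, grouped by their known roles, and each of the 33 matched 1 of the 47643 gene IDs in every deposited table. The 10 libraries fell into 4 groups of B6 mice, with no genetic change or treatment named in the labels: 3 libraries of ILCs from the epidermis, 2 of dermal ILCs sorted as CCR6+, 2 of dermal ILCs sorted as Sca1+ (the surface protein encoded by Ly6a), and 3 of ILCs from the subcutaneous layer. The sort marker of the second library of either dermal group was taken from its title, because its cell type label names none. The series' design speaks of triplicates, and 2 libraries of either dermal group were analysed here.

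Immediate early genes are switched on within minutes of a signal, without new protein synthesis, and many encode transcription factors such as the AP-1 dimers of FOS and JUN proteins. In lymphocytes they mark stimulation through antigen or cytokine receptors, and they are also known to be induced while tissue is cut, digested and sorted. Heat shock genes encode chaperones that fold proteins or keep them soluble, and the inducible ones are driven by the transcription factor HSF1.

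Each library held between 11627222 and 18118544 expected counts in total, of which mitochondrial genes made up 1.61% to 4.90%. No pair of replicates was alike within counting noise, with chi-square values between 39.8 and 130 per degree of freedom. Levels are given as CPM, the counts of a gene scaled to its library's TMM-adjusted size, which compare 1 gene between libraries, and as TPM, which also correct for transcript length and compare genes with each other. A gene with 3 counts stood at 0.149 to 0.258 CPM, depending on the library. The ILC markers Ptprc, Il7r, Id2 and Gata3 were present in every library, with Il7r between 479 and 602 CPM. Ccr6 was at 975, 1354 and 1055 CPM in epidermal, 779 and 888 CPM in dermal CCR6+, 40.9 and 102 CPM in dermal Sca1+, and 0, 24.1 and 0.159 CPM in subcutaneous ILCs. Ly6a was between 149 and 248 CPM in epidermal, 101 and 213 CPM in dermal CCR6+, 1394 and 1418 CPM in dermal Sca1+ and 1208 to 1866 CPM in subcutaneous ILCs. Each library pools many cells, so fewer cells carrying a transcript and less of it per cell cannot be told apart. Separate animals behind the replicates are not stated in the labels, so the p-values reflect the spread among libraries, part of which could be technical.

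Markers of other cell types differed between the same groups. The 10 fibroblast markers summed to between 0.488 and 18.2 CPM in epidermal, 1245 and 2149 CPM in dermal CCR6+, 2622 and 3830.4 CPM in dermal Sca1+ and 2996 to 4520.4 CPM in subcutaneous libraries. The 13 macrophage and dendritic cell markers summed to between 467 and 581 CPM in epidermal, 1562 and 1812 CPM in dermal CCR6+, 1634 and 3458 CPM in dermal Sca1+ and 6823 to 12260 CPM in subcutaneous libraries. Both lists were lowest in the epidermal libraries, where Pdgfra, Mfap5, Mrc1 and Itgax had no count in any library. The 8 endothelial markers reached at most 7.86 CPM in epidermal libraries, with 5 of the 8 at 0 (Cdh5, Plvap, Kdr, Tek and Cldn5), and 152 to 564 CPM elsewhere. The 8 mast cell and basophil markers reached at most 0.139 CPM in epidermal libraries and 38.0 to 429 CPM elsewhere. The 5 markers of simple or glandular epithelium summed to between 25.0 and 72.0 CPM in the epidermal and dermal libraries and between 1500.0 and 4163 CPM in subcutaneous ones. The 11 keratinocyte markers ran the other way, with 3151, 8666 and 8627 CPM in epidermal, 2338 and 1682 CPM in dermal CCR6+, 2435 and 2167 CPM in dermal Sca1+ and 236, 136 and 109 CPM in subcutaneous libraries. The 8 T cell markers summed to between 136 and 648 CPM over all groups, with Cd3e between 1.98 and 80.1 CPM, while the 5 B cell markers stayed at or under 38.4 CPM and the 5 neutrophil markers at or under 12.6 CPM. The part of these cells in the results below was not tested.

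Of the 33 genes, 22 passed the test as lower in epidermal ILCs when set against subcutaneous ILCs, 16 of them immediate early genes, and 12 were lower in epidermal ILCs than in every other group, as were 4.15% of all genes tested. These 12 were the AP-1 genes Fosb, Fosl1, Fosl2 and Jund, the nuclear receptor genes Nr4a2 and Nr4a3, and Atf3, Maff, Btg2, Zfp36l1, Dnajb1 and Dnaja1. The small heat shock gene Hspb1 was higher in epidermal ILCs than in every other group, as were 0.426% of all genes tested. Its calls against both dermal groups were lost in most fits that left out 1 library. Of the 12 lower genes only Nr4a2, Atf3, Jund and Dnaja1 kept every epidermal call in all alternative and leave-one-out fits. Each of the others lost a dermal call in at least 1 of these fits. Between the dermal CCR6+ and the dermal Sca1+ ILCs no member passed the test.

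Against subcutaneous ILCs, 22 of the 33 members were lower and 1 was higher in epidermal ILCs, where edgeR's quasi-likelihood test with a Benjamini-Hochberg adjusted p under 0.05 called 13.3% of the 16208 genes tested as lower and 6.87% as higher. Of all calls in this comparison 34.1% were higher, and 47.9% with limma on log2(TPM + 1). All 33 members passed the filter on low counts. The median log2 fold change, epidermal over subcutaneous, was -1.37 over the members and -0.02 over all genes tested. Of the 21 immediate early genes 16 were lower and of the 12 chaperone genes 6 were lower and 1 higher. The libraries of the 2 groups did not overlap for 23 members that were lower and 1 that was higher, against 22.5% and 17.2% of all genes tested.

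Against dermal CCR6+ ILCs, 12 members were lower and 1 was higher in epidermal ILCs, with 5.19% of all genes called lower and 0.987% called higher. The count of lower members was 7 without epidermal replicate 2, 6 without dermal CCR6+ replicate 1, and 4 when only the 2 groups compared entered the fit. Against dermal Sca1+ ILCs, 15 were lower and 1 was higher, with 8.66% and 2.75% of all genes called. That count was 9 without dermal Sca1+ replicate 1. Libraries did not overlap for 20 lower members against dermal CCR6+ ILCs and 22 lower members against dermal Sca1+ ILCs, where 19% and 22% of all genes tested lay apart in that direction. In both comparisons Hspb1 alone lay apart as higher, against 15.3% and 19% of all genes. The members' median log2 fold change was -0.60 against dermal CCR6+ and -0.93 against dermal Sca1+ ILCs, and that of all genes was 0 in both. The share of all calls that were higher was 15.98% over dermal CCR6+ ILCs, against 35.6% with limma on TPM and 29.2% with DESeq2, and 24.1% over dermal Sca1+ ILCs, against 39.1% with limma. The 3 comparisons share the epidermal libraries.

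**Figure D1:**
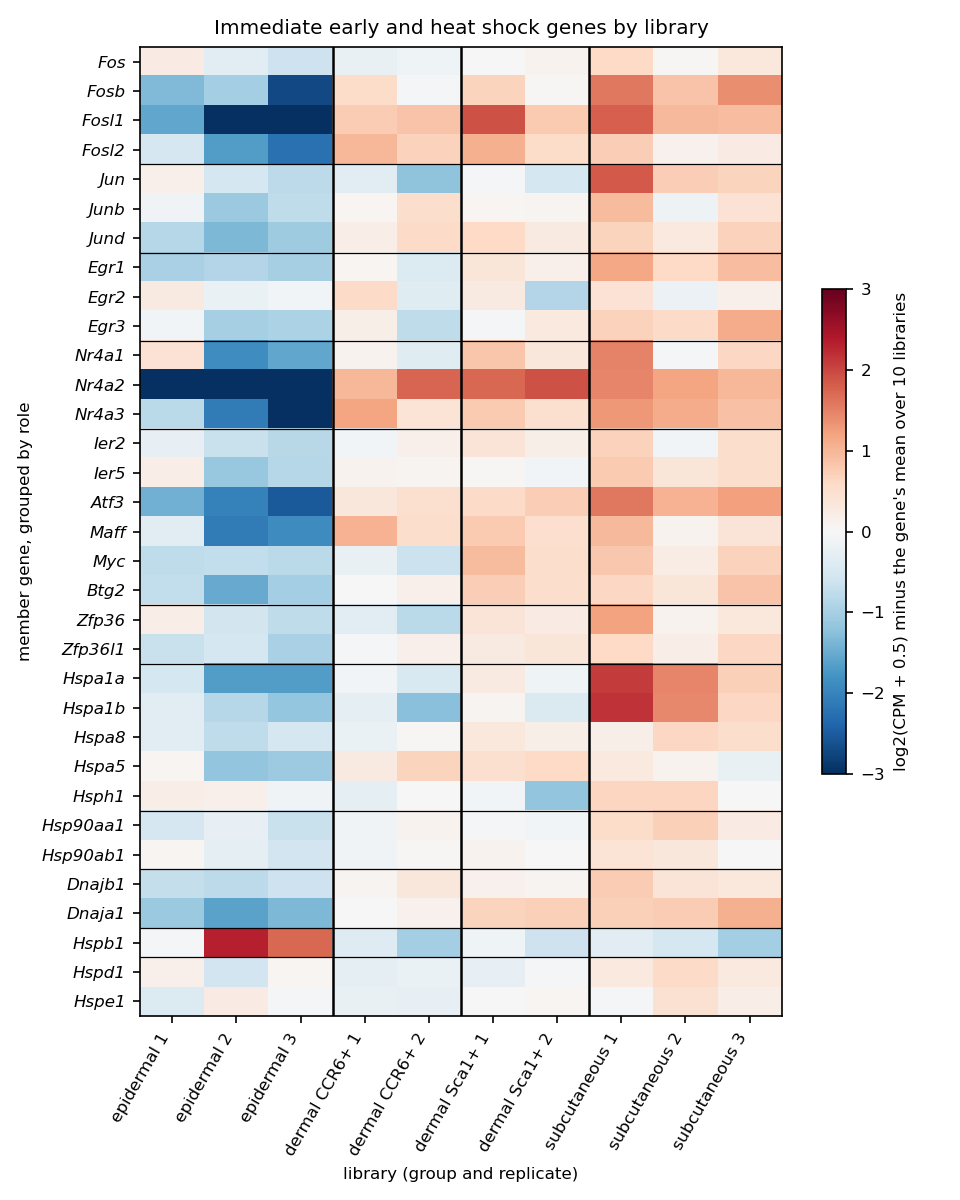
Level of the 33 members in each of the 10 libraries, as log2(CPM + 0.5) minus the gene's mean over the libraries (blue low, red high, colours limited at 3 in either direction). Rows are grouped by role and columns by group, and the 3 epidermal columns are blue in most rows. Hspb1 in epidermal replicates 2 and 3 is their strongest red. Some other entries lie slightly above the gene's mean, such as Fos and Nr4a1 in epidermal replicate 1.

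**Figure D2:**
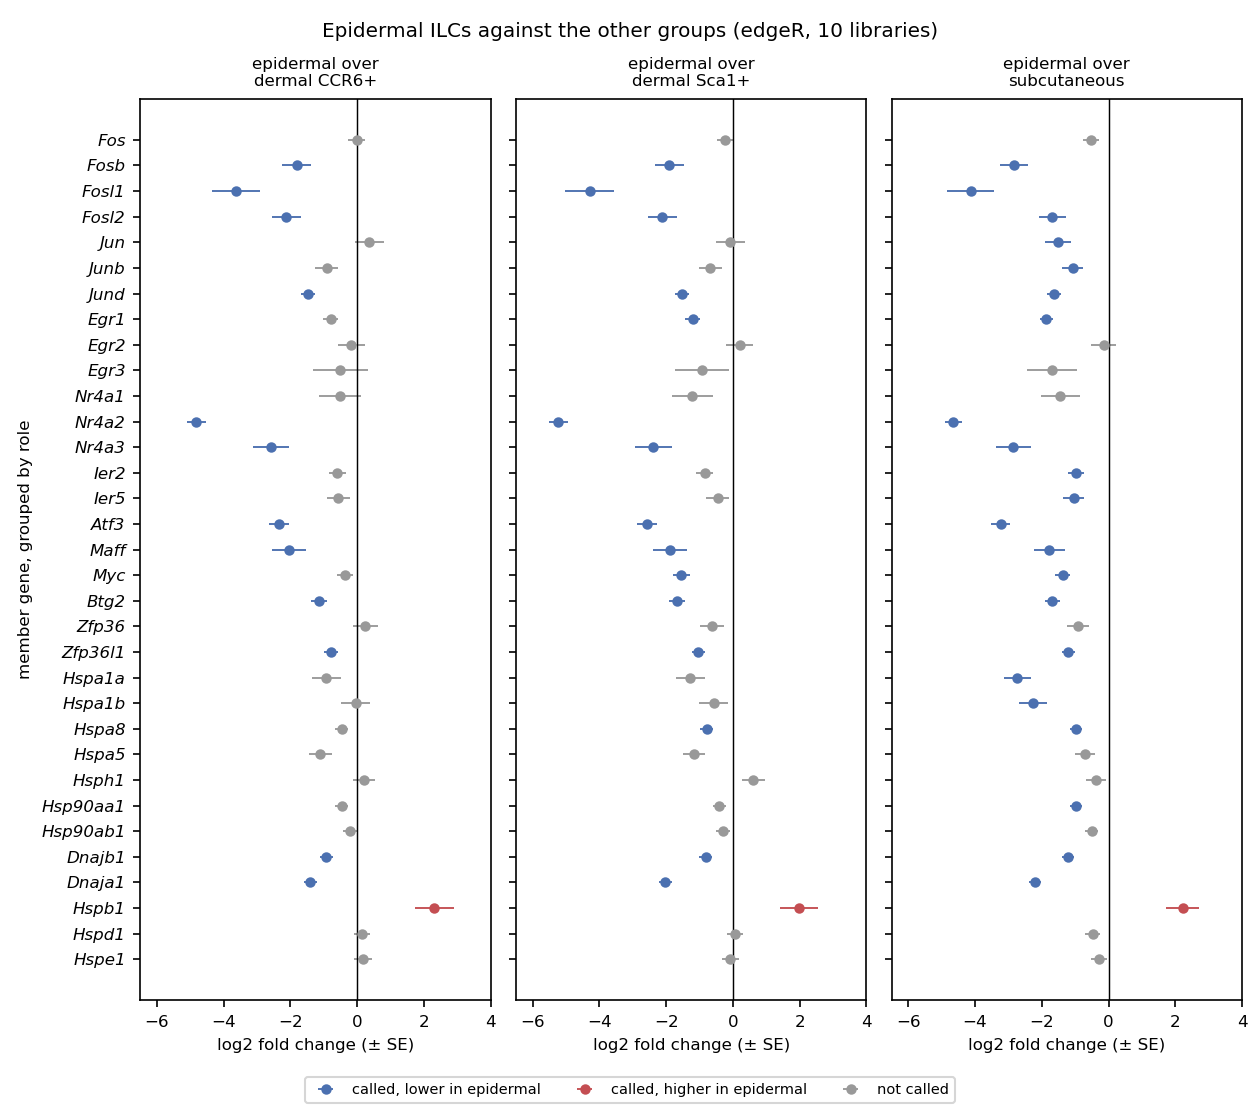
Log2 fold change of each member in epidermal ILCs over dermal CCR6+, dermal Sca1+ and subcutaneous ILCs (x axis, points with SE), with called genes in blue (lower) and red (higher). In the panel against subcutaneous ILCs 32 of the 33 points lie left of 0.

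Fos, the founding AP-1 partner of JUN, stayed abundant in all groups while its 3 relatives were scarce in epidermal ILCs. Its level was 2788, 1873 and 1523 CPM in epidermal, 2010.0 and 2152 CPM in dermal CCR6+, 2323 and 2511 CPM in dermal Sca1+ and 3553, 2424 and 2932 CPM in subcutaneous ILCs. The highest epidermal library lay inside the subcutaneous range, and Fos was called in no comparison (epidermal over subcutaneous log2 fold change -0.53 ± 0.23 SE, adjusted p = 0.139). Without epidermal replicate 1 it passed the test against subcutaneous ILCs (log2 fold change -0.79, adjusted p = 0.0235). By TPM, Fos ranked between 50 and 152 among all genes in every library.

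Fosb, which encodes a FOS relative with its own activation domain, had 139, 174 and 53.7 CPM in epidermal, 519.6 and 337 CPM in dermal CCR6+, 559.9 and 359.8 CPM in dermal Sca1+ and 1061, 638 and 932 CPM in subcutaneous ILCs. Every epidermal library lay below every other library, and the subcutaneous libraries were the highest. For Fosb the log2 fold change was -2.84 ± 0.42 over subcutaneous (adjusted p = 0.00094), -1.81 ± 0.43 over dermal CCR6+ (adjusted p = 0.0342) and -1.91 ± 0.43 over dermal Sca1+ ILCs (adjusted p = 0.0177). The call against dermal CCR6+ ILCs was lost without dermal CCR6+ replicate 1 (adjusted p = 0.188), epidermal replicate 1 (0.06) or subcutaneous replicate 3 (0.0563), and the call against dermal Sca1+ ILCs without dermal Sca1+ replicate 1 (adjusted p = 0.124).

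Fosl1, which encodes FRA-1, an AP-1 protein without an activation domain of its own, took the smallest TPM share of the FOS genes in every library. It had 2.93, 0.557 and 0.595 CPM in epidermal, 16.7 and 17.6 CPM in dermal CCR6+, 37.1 and 16.8 CPM in dermal Sca1+ and 34.6, 19.1 and 18.6 CPM in subcutaneous ILCs. It was under 3 CPM in the epidermal libraries and above 16 CPM in every other library. The log2 fold change was -4.13 ± 0.70 over subcutaneous ILCs (adjusted p = 0.00226). Over dermal CCR6+ ILCs it was -3.64 ± 0.72 (adjusted p = 0.0134), and over dermal Sca1+ ILCs -4.30 ± 0.74 (adjusted p = 0.00386). Fosl2, which encodes the related FRA-2, had 290.1, 127 and 87.1 CPM in epidermal, 813 and 657 CPM in dermal CCR6+, 852 and 599 CPM in dermal Sca1+ and 686, 448 and 486 CPM in subcutaneous ILCs. The dermal libraries, not the subcutaneous ones, reached the top values for Fosl2, and the epidermal libraries again lay below all others. For Fosl2 the log2 fold change was -2.13 ± 0.43 over dermal CCR6+ (adjusted p = 0.0145), -2.11 ± 0.43 over dermal Sca1+ (adjusted p = 0.01) and -1.68 ± 0.40 over subcutaneous ILCs (adjusted p = 0.0133). The Fosl2 calls were lost against dermal CCR6+ ILCs without epidermal replicate 2 or dermal CCR6+ replicate 1 (adjusted p = 0.0538 and 0.0727) and against dermal Sca1+ ILCs without dermal Sca1+ replicate 1 (adjusted p = 0.069).

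The make-up of the FOS family differed between the epidermal and the other libraries on the per-length scale. Fos took between 93.2% and 96.2% of the summed TPM of the 4 FOS genes in epidermal libraries, against 77.6% to 85.8% in the other 7 libraries. Fosb took between 1.81% and 4.69% in epidermal libraries, 7.14% to 11.7% in the dermal libraries and 14.1% to 16.2% in the subcutaneous ones. These shares are descriptions without a test.

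In the JUN family, Jund was lower in epidermal ILCs than in all other groups, while Jun and Junb differed only from subcutaneous ILCs by the test. Jund, a JUN gene that resting cells already express, had 446, 317 and 382 CPM in epidermal, 931 and 1198 CPM in dermal CCR6+, 1228 and 969 CPM in dermal Sca1+ and 1282, 989 and 1296 CPM in subcutaneous ILCs. No epidermal library came within reach of the lowest other library. For Jund the log2 fold change was -1.64 ± 0.20 over subcutaneous (adjusted p = 0.000308), -1.48 ± 0.22 over dermal CCR6+ (adjusted p = 0.00266) and -1.52 ± 0.22 over dermal Sca1+ ILCs (adjusted p = 0.00133). Jund shares its locus with the antisense gene Gm11175, which had up to 944 counts, and without strand the reads of the pair cannot be told apart.

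Jun, the strongest transcriptional activator of the family, had 232, 145 and 120.1 CPM in epidermal, 168 and 89.8 CPM in dermal CCR6+, 203 and 146 CPM in dermal Sca1+ and 749, 349 and 334 CPM in subcutaneous ILCs. The epidermal and both dermal groups overlapped, and the 3 subcutaneous libraries stood above all of them, subcutaneous replicate 1 farthest. The log2 fold change over subcutaneous ILCs was -1.53 ± 0.39 for epidermal (adjusted p = 0.019) and -1.89 ± 0.45 for dermal CCR6+ ILCs (adjusted p = 0.0319). Without subcutaneous replicate 1 neither Jun call held, with log2 fold changes of -1.04 (adjusted p = 0.0702) and -1.41 (adjusted p = 0.0757). The epidermal call was also lost without epidermal replicate 2 or 3 (adjusted p = 0.0643 and 0.0708), and the dermal CCR6+ one without dermal CCR6+ replicate 2 (adjusted p = 0.252).

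Junb, an AP-1 gene that T helper cells use in cytokine gene control, made up between 77.4% and 87.7% of the summed TPM of the 3 JUN genes. It had 2781, 1373 and 1748 CPM in epidermal, 3098 and 4301 CPM in dermal CCR6+, 3099 and 3161 CPM in dermal Sca1+ and 5687, 2666 and 4029 CPM in subcutaneous ILCs. It ranked between 20 and 165 by TPM. The epidermal range overlapped the subcutaneous one, since epidermal replicate 1 exceeded subcutaneous replicate 2. Its log2 fold change over subcutaneous ILCs was -1.07 ± 0.31 (adjusted p = 0.0369), and the call was lost without subcutaneous replicate 1 (adjusted p = 0.132), epidermal replicate 2 (0.115), epidermal replicate 3 (0.114), subcutaneous replicate 3 (0.0769) or either dermal Sca1+ library (0.0544 and 0.0525). Junb overlaps Prdx2, a well-expressed gene on the opposite strand with up to 5906 counts, so its reads may include some of that gene.

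Of the 3 EGR zinc finger genes, Egr1 differed between groups and Egr2 and Egr3 did not pass the test. Egr1, the family member known for its response to growth factor and antigen receptor signals, had 149, 158 and 147 CPM in epidermal, 307 and 221 CPM in dermal CCR6+, 375 and 325 CPM in dermal Sca1+ and 654, 439.8 and 560.3 CPM in subcutaneous ILCs. The epidermal libraries were tightly grouped and below all others, and the subcutaneous libraries were above all others. The Egr1 log2 fold change was -1.86 ± 0.20 over subcutaneous ILCs (adjusted p = 0.000135) and -1.21 ± 0.22 over dermal Sca1+ ILCs (adjusted p = 0.00504), and over dermal CCR6+ ILCs it was -0.80 ± 0.22 without a call (adjusted p = 0.0585). Dermal CCR6+ ILCs had less Egr1 than subcutaneous ILCs (-1.06 ± 0.23, adjusted p = 0.0183), but no longer passed without dermal CCR6+ replicate 2 (adjusted p = 0.207) or subcutaneous replicate 1 (adjusted p = 0.0502).

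Egr2, which restrains activated lymphocytes, lay between 31.5 and 43.9 CPM in epidermal and between 31.9 and 49.1 CPM in subcutaneous libraries, with dermal CCR6+ values of 54.1 and 28.1 CPM and dermal Sca1+ values of 43.6 and 19.3 CPM. All 4 groups overlapped. Egr3, its close relative, was rare at 2.38, 1.04 and 1.09 CPM in epidermal, 2.95 and 1.32 CPM in dermal CCR6+, 2.48 and 3.27 CPM in dermal Sca1+ and 4.49, 4.10 and 6.11 CPM in subcutaneous ILCs. Its epidermal libraries lay below the subcutaneous ones, and with a log2 fold change of -1.69 ± 0.76 it missed the threshold (adjusted p = 0.148).

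The NR4A genes encode nuclear receptors without a known natural ligand, and they are early targets of calcium and cAMP signals. Nr4a2 showed the deepest epidermal deficit of all 33 members, with 8.998, 9.33 and 7.18 CPM in epidermal, 179 and 302 CPM in dermal CCR6+, 296 and 342 CPM in dermal Sca1+ and 251, 206 and 181 CPM in subcutaneous ILCs. The epidermal libraries were all under 10 CPM while every other library was above 175 CPM. The log2 fold change was -4.82 ± 0.28 over dermal CCR6+ ILCs (adjusted p = 1.9e-05), -5.23 ± 0.28 over dermal Sca1+ ILCs (adjusted p = 8.17e-06) and -4.65 ± 0.27 over subcutaneous ILCs (adjusted p = 4.22e-06). No alternative setting and no left-out library removed any of these 3 calls.

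Nr4a3 was also lowest in epidermal ILCs, with 111, 45.00 and 19.97 CPM in epidermal, 445 and 261 CPM in dermal CCR6+, 339 and 273 CPM in dermal Sca1+ and 485, 426 and 362 CPM in subcutaneous ILCs. The 3 epidermal libraries lay below all others but spread more widely among themselves than those of Nr4a2. For Nr4a3 the log2 fold change was -2.59 ± 0.55 over dermal CCR6+ (adjusted p = 0.0181), -2.38 ± 0.54 over dermal Sca1+ (adjusted p = 0.018) and -2.85 ± 0.52 over subcutaneous ILCs (adjusted p = 0.00333). The calls against the dermal groups were lost without epidermal replicate 2 (adjusted p = 0.0664 for CCR6+ and 0.062 for Sca1+), without dermal CCR6+ replicate 1 (adjusted p = 0.106 for CCR6+) and without dermal Sca1+ replicate 1 (adjusted p = 0.0834 for Sca1+).

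Nr4a1, which encodes Nur77, a common reporter of antigen receptor signalling in T cells, had 2012, 412 and 507 CPM in epidermal, 1616 and 1168 CPM in dermal CCR6+, 2649 and 1878 CPM in dermal Sca1+ and 4205, 1467 and 2281 CPM in subcutaneous ILCs. Epidermal replicate 1 stood apart from the other 2 epidermal libraries and lay among the dermal and subcutaneous values. Nr4a1 was called in no comparison (epidermal over subcutaneous -1.44 ± 0.58, adjusted p = 0.109). Without epidermal replicate 1 its log2 fold change was -2.51 over subcutaneous (adjusted p = 0.00327) and -2.27 over dermal Sca1+ ILCs (adjusted p = 0.0106). On the TPM scale Nr4a1 made up between 87.0% and 97.0% of the 3 NR4A genes in epidermal libraries and between 75.7% and 90.5% elsewhere.

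The promoters of Nr4a2, which differed strongly, and of Nr4a1, which passed no test, are shown side by side because both hold 4 copies of TGACG, the core of the cAMP response element (CRE) bound by CREB and ATF proteins. They are the 250 bases before the start site in RefSeq, build GRCm38.p6, 5′ to 3′ on the gene's strand, with the core or its reverse complement in capitals.
Nr4a2 (chr2:57124004-57124253, minus strand): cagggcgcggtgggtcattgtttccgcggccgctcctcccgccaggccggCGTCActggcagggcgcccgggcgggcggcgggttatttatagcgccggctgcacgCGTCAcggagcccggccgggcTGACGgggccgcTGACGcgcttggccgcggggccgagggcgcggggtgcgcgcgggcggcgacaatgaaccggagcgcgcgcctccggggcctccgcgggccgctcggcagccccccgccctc
Nr4a1 (chr15:101266596-101266845, plus strand): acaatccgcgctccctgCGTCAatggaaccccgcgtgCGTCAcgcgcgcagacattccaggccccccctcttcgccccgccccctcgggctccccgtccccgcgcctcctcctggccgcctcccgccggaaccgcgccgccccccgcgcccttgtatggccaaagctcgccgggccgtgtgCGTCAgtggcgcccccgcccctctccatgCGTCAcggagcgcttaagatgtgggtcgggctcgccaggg
Nr4a3 also holds 4 copies in its window. Of all 32851 mouse promoter windows of this length, 0.137% held 4 or more.

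**Figure D3:**
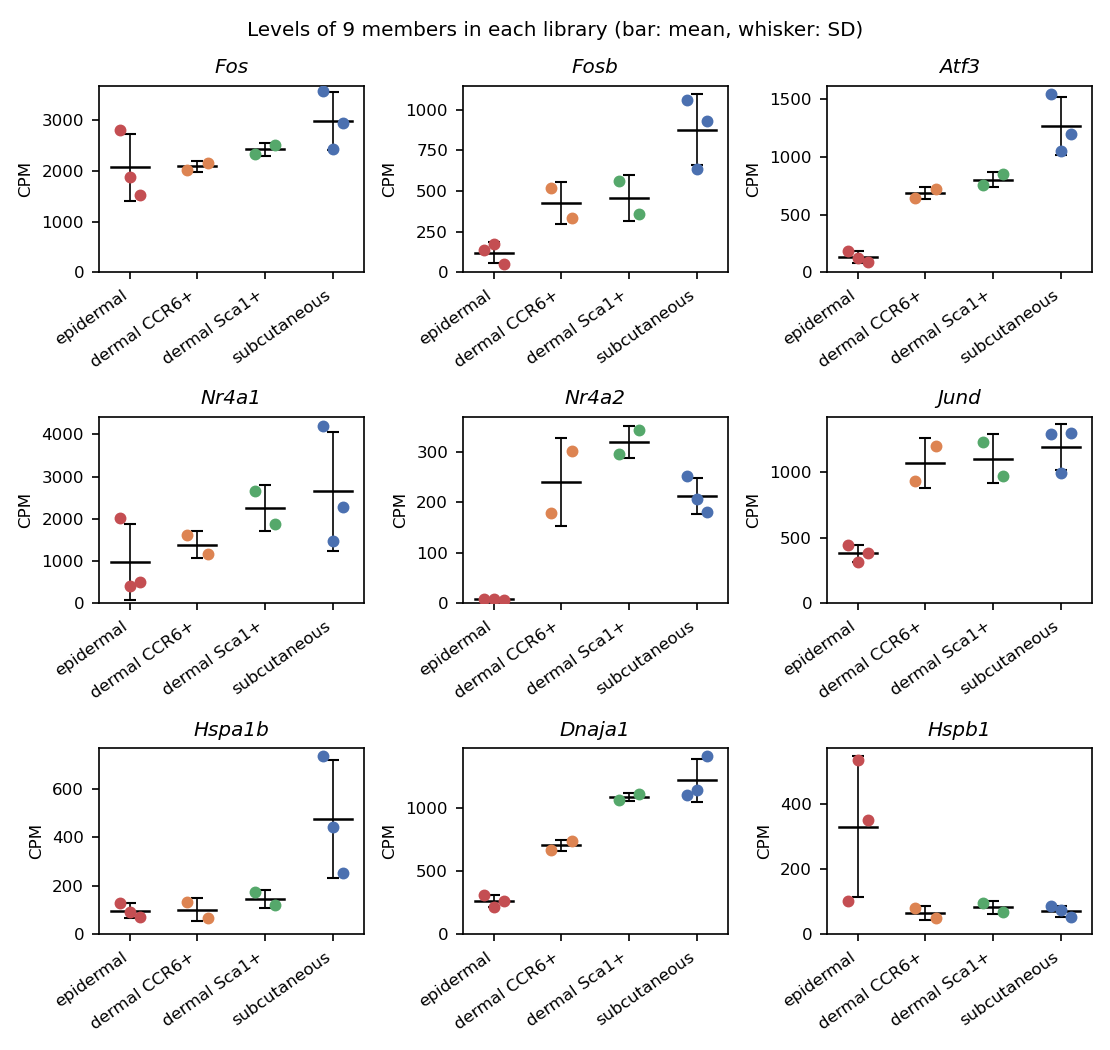
CPM of 9 members in each library (y axis, from 0) by group (x axis), with points for libraries, a bar for the mean and a whisker for the SD. The epidermal points of Nr4a2, Jund, Atf3 and Dnaja1 lie below all others, those of Fos and Nr4a1 reach into the other groups, and Hspb1 is high in epidermal ILCs.

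All of the 6 other immediate early regulators passed the test as lower against subcutaneous ILCs. Atf3, a stress-induced bZIP transcription factor, had 189, 126 and 89.2 CPM in epidermal, 649.9 and 722 CPM in dermal CCR6+, 761 and 851 CPM in dermal Sca1+ and 1544, 1057 and 1201 CPM in subcutaneous ILCs. The 4 groups did not overlap, in the rising order epidermal, dermal CCR6+, dermal Sca1+ and subcutaneous, although only the epidermal comparisons passed the test. For Atf3 the log2 fold change was -2.35 ± 0.29 over dermal CCR6+ (adjusted p = 0.000904), -2.58 ± 0.29 over dermal Sca1+ (adjusted p = 0.000312) and -3.23 ± 0.28 over subcutaneous ILCs (adjusted p = 3.87e-05). Each of the 3 calls held in every alternative and every leave-one-out fit.

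Btg2, an antiproliferative factor that speeds the removal of mRNA tails, had 563, 327 and 461 CPM in epidermal, 949.6 and 1050.2 CPM in dermal CCR6+, 1557 and 1347 CPM in dermal Sca1+ and 1443, 1207 and 1701 CPM in subcutaneous ILCs. The epidermal libraries were below all others. For Btg2 the log2 fold change was -1.69 ± 0.22 over subcutaneous (adjusted p = 0.000457), -1.69 ± 0.24 over dermal Sca1+ (adjusted p = 0.00122) and -1.15 ± 0.24 over dermal CCR6+ ILCs (adjusted p = 0.0169). The last of these was lost without epidermal replicate 3 (adjusted p = 0.0507) or dermal CCR6+ replicate 1 or 2 (adjusted p = 0.0586 and 0.0973).

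Myc, a driver of cell growth, split the groups differently, with 43.96, 44.2 and 42.01 CPM in epidermal, 63.5 and 47.7 CPM in dermal CCR6+, 145 and 108 CPM in dermal Sca1+ and 130.1, 86.6 and 119.7 CPM in subcutaneous ILCs. Epidermal and dermal CCR6+ libraries were low, dermal Sca1+ and subcutaneous ones high. For Myc the log2 fold change was -1.37 ± 0.22 over subcutaneous (adjusted p = 0.00173) and -1.54 ± 0.24 over dermal Sca1+ ILCs (adjusted p = 0.0023), while over dermal CCR6+ ILCs it was -0.36 ± 0.24 (adjusted p = 0.482). Dermal CCR6+ ILCs had less Myc than subcutaneous ILCs (-1.01 ± 0.25, adjusted p = 0.0376), a call lost without dermal CCR6+ replicate 2 (adjusted p = 0.3) or 1 (0.0706), subcutaneous replicate 1 (0.103) or 3 (0.0973), or epidermal replicate 3 (0.0584). Against dermal Sca1+ ILCs the dermal CCR6+ difference of -1.18 ± 0.27 missed the threshold (adjusted p = 0.113) but passed with DESeq2 (adjusted p = 0.00336).

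Maff, a small MAF protein that binds DNA but lacks an activation domain, had 30.1, 8.50 and 10.01 CPM in epidermal, 79.2 and 54.99 CPM in dermal CCR6+, 65.7 and 54.3 CPM in dermal Sca1+ and 75.6, 41.2 and 50.2 CPM in subcutaneous ILCs. Epidermal replicate 1 was nearest to the other groups and still below them. For Maff the log2 fold change was -2.05 ± 0.50 over dermal CCR6+ (adjusted p = 0.0382), -1.89 ± 0.50 over dermal Sca1+ (adjusted p = 0.036) and -1.78 ± 0.47 over subcutaneous ILCs (adjusted p = 0.0221). These calls rested on few libraries. Against subcutaneous ILCs the call was lost without epidermal replicate 2 or 3 or subcutaneous replicate 1 (adjusted p = 0.0629, 0.0749 and 0.0784). Against dermal Sca1+ ILCs it was lost without any of epidermal replicates 2 and 3, both dermal Sca1+ libraries and subcutaneous replicate 3 (adjusted p up to 0.15), and against dermal CCR6+ ILCs without any single library except epidermal replicate 1 and subcutaneous replicate 1 (adjusted p up to 0.177).

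Ier2 and Ier5 encode small nuclear proteins of the early response. Ier2 had 387, 290.5 and 258 CPM in epidermal, 437 and 508 CPM in dermal CCR6+, 600.4 and 517 CPM in dermal Sca1+ and 751, 433 and 665 CPM in subcutaneous ILCs. Ier5 had 309.8, 121 and 147 CPM in epidermal, 286 and 284 CPM in dermal CCR6+, 274 and 253 CPM in dermal Sca1+ and 459, 343 and 387 CPM in subcutaneous ILCs. In both genes all epidermal libraries lay below all subcutaneous ones, and epidermal replicate 1 was the highest of its group. Both were called against subcutaneous ILCs, with -0.98 ± 0.24 for Ier2 (adjusted p = 0.0146) and -1.04 ± 0.31 for Ier5 (adjusted p = 0.0391). The Ier2 call was lost without epidermal replicate 2 or 3 or subcutaneous replicate 1 (adjusted p = 0.0503, 0.0634 and 0.0522), and the Ier5 call without any single library except epidermal replicate 1 (adjusted p up to 0.124).

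Zfp36 and Zfp36l1 encode proteins that bind AU-rich elements and speed the decay of cytokine and other short-lived mRNAs. Zfp36l1 had 257, 282 and 209.6 CPM in epidermal, 401 and 456 CPM in dermal CCR6+, 492 and 531 CPM in dermal Sca1+ and 618, 470.0 and 634 CPM in subcutaneous ILCs, with the epidermal libraries below all others. The log2 fold change of Zfp36l1 was -1.20 ± 0.18 over subcutaneous (adjusted p = 0.00122), -1.04 ± 0.20 over dermal Sca1+ (adjusted p = 0.00784) and -0.78 ± 0.20 over dermal CCR6+ ILCs (adjusted p = 0.0483). The last call was lost when any single library except subcutaneous replicate 2 was left out (adjusted p up to 0.256), and the one against dermal Sca1+ ILCs without dermal Sca1+ replicate 2 (adjusted p = 0.0753). Zfp36, which encodes tristetraprolin, had 914, 539 and 470.0 CPM in epidermal, 627 and 452 CPM in dermal CCR6+, 1033 and 937 CPM in dermal Sca1+ and 1814, 858 and 983 CPM in subcutaneous ILCs. Its groups overlapped between epidermal and subcutaneous ILCs, and it was called in no comparison (epidermal over subcutaneous -0.93 ± 0.33, adjusted p = 0.0731), though it passed without epidermal replicate 1 (adjusted p = 0.0244).

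Among the 12 chaperone genes, 6 passed the test as lower against subcutaneous ILCs, both inducible and constitutive ones. Hspa1a and Hspa1b, the stress-inducible HSP70 genes, were highest in subcutaneous ILCs. Hspa1a had 71.3, 31.6 and 31.8 CPM in epidermal, 97.02 and 74.2 CPM in dermal CCR6+, 123 and 94.5 CPM in dermal Sca1+ and 439, 285 and 169 CPM in subcutaneous ILCs. Hspa1b had 131, 90.5 and 73.6 CPM in epidermal, 135 and 68.7 CPM in dermal CCR6+, 173 and 120.3 CPM in dermal Sca1+ and 733, 442 and 251 CPM in subcutaneous ILCs. In both genes the 3 subcutaneous libraries lay above all 7 others and spread widely, with replicate 1 highest and replicate 3 lowest. The log2 fold change of epidermal over subcutaneous ILCs was -2.73 ± 0.42 for Hspa1a (adjusted p = 0.00115) and -2.27 ± 0.41 for Hspa1b (adjusted p = 0.00333). That of dermal CCR6+ over subcutaneous ILCs was -1.80 ± 0.47 for Hspa1a (adjusted p = 0.0434) and -2.23 ± 0.48 for Hspa1b (adjusted p = 0.0201), and neither gene was called between epidermal and dermal ILCs. The dermal CCR6+ calls were lost without dermal CCR6+ replicate 2 (adjusted p = 0.274 for Hspa1a and 0.18 for Hspa1b) or subcutaneous replicate 1 (adjusted p = 0.118 and 0.0502), and for Hspa1a also without dermal CCR6+ replicate 1 (0.114), subcutaneous replicate 2 (0.0853) or either dermal Sca1+ library (0.0582 and 0.0525).

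Hspa1a and Hspa1b lie next to each other on chromosome 17 and are near copies, so their separate counts are uncertain. Their coding sequences were identical at 1918 of 1929 aligned columns (99.4%), with a longest identical run of 638 bases. Their promoter windows, shown because they bear on how little the copies differ, were identical at 247 of 250 bases, with capitals marking the inverted heat shock element pair GAANNTTC, the sequence unit that HSF1 binds in repeats.
Hspa1a (chr17:34972157-34972406, minus strand): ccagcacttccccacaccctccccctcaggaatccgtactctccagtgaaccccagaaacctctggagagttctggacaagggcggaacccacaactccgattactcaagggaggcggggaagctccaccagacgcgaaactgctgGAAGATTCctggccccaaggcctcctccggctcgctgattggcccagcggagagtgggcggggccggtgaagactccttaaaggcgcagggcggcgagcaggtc
Hspa1b (chr17:34959239-34959488, minus strand): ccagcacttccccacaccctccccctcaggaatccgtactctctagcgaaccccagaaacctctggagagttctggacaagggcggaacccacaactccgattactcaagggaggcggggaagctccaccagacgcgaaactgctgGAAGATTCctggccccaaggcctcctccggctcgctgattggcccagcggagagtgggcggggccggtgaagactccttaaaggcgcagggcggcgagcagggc
The GAANNTTC pair occurred in 8 of the members' 36 windows and in 6.69% of all promoter windows. The 8 were windows of Hspa1a, Hspa1b, Dnaja1, Hspb1, Hspd1, Hspe1, Fosl2 and Jun. They are not 8 separate sites, since Hspa1a and Hspa1b are near copies and Hspd1 and Hspe1 share the same bases.

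Hspa8, the constitutive HSP70 that most cells hold in large amounts, had 2289, 1712 and 2018 CPM in epidermal, 2553 and 2973 CPM in dermal CCR6+, 3597 and 3296 CPM in dermal Sca1+ and 3271, 4463 and 4158 CPM in subcutaneous ILCs. It ranked between 53 and 164 by TPM, and the epidermal libraries lay below all others. For Hspa8 the log2 fold change was -0.98 ± 0.18 over subcutaneous (adjusted p = 0.00323) and -0.78 ± 0.20 over dermal Sca1+ ILCs (adjusted p = 0.0276), and the call against dermal Sca1+ ILCs was lost without epidermal replicate 2 or 3 (adjusted p = 0.0763 and 0.0743) or either dermal Sca1+ library (adjusted p = 0.16 and 0.102). Hspa5, which encodes BiP, the HSP70 of the endoplasmic reticulum, had 1901, 816 and 868 CPM in epidermal, 2234 and 2909.5 CPM in dermal CCR6+, 2555 and 2783 CPM in dermal Sca1+ and 2259, 1992 and 1581 CPM in subcutaneous ILCs. Epidermal replicates 2 and 3 were low and replicate 1 lay among the subcutaneous values, and Hspa5 was not called (epidermal over dermal Sca1+ -1.16 ± 0.34, adjusted p = 0.0534). Without epidermal replicate 1 it was called against all 3 other groups (adjusted p = 0.00211, 0.00131 and 0.0031 for dermal CCR6+, dermal Sca1+ and subcutaneous ILCs in turn). Hsph1, the HSP110 that exchanges nucleotide on HSP70, lay between 26.7 and 96.1 CPM with overlapping epidermal and subcutaneous groups and no call.

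Of the HSP90 genes, the inducible Hsp90aa1 passed the test against subcutaneous ILCs and the constitutive Hsp90ab1 did not. Hsp90aa1 had 362, 438 and 328 CPM in epidermal, 484 and 553 CPM in dermal CCR6+, 505 and 488 CPM in dermal Sca1+ and 756, 847 and 616 CPM in subcutaneous ILCs. All epidermal libraries lay below the lowest library of each other group. For Hsp90aa1 the log2 fold change was -0.98 ± 0.18 over subcutaneous ILCs (adjusted p = 0.00366), held in every alternative, and -0.46 ± 0.20 over dermal CCR6+ ILCs without a call (adjusted p = 0.225). Hsp90ab1 averaged 1071 ± 239 CPM in epidermal and 1515 ± 220.3 CPM in subcutaneous ILCs (SD, n = 3 each), a log2 fold change of -0.50 ± 0.19 (adjusted p = 0.098).

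The J-domain genes, whose products load clients onto HSP70, were both lower in epidermal ILCs than in all 3 other groups. Dnaja1 had 312, 219 and 265 CPM in epidermal, 669.6 and 735 CPM in dermal CCR6+, 1059.7 and 1106 CPM in dermal Sca1+ and 1097, 1140.3 and 1411 CPM in subcutaneous ILCs. The 4 groups did not overlap except dermal Sca1+ and subcutaneous ILCs, and dermal CCR6+ ILCs lay in between. For Dnaja1 the log2 fold change was -1.40 ± 0.20 over dermal CCR6+ (adjusted p = 0.00179), -2.03 ± 0.20 over dermal Sca1+ (adjusted p = 0.000133) and -2.20 ± 0.19 over subcutaneous ILCs (adjusted p = 3.15e-05), and all 3 calls held in every alternative. Dermal CCR6+ over subcutaneous ILCs gave -0.79 ± 0.20 (adjusted p = 0.0423), and that call was lost without any single library except epidermal replicates 1 and 2 (adjusted p up to 0.196). Dnaja1 overlaps Smu1 on the opposite strand, which had up to 3183 counts.

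Dnajb1, the inducible HSP40, had 139, 133 and 149.8 CPM in epidermal, 244 and 289 CPM in dermal CCR6+, 250.01 and 243 CPM in dermal Sca1+ and 389, 299 and 286 CPM in subcutaneous ILCs. The epidermal libraries formed a tight group below all others. The log2 fold change was -1.21 ± 0.18 over subcutaneous (adjusted p = 0.000878), -0.92 ± 0.19 over dermal CCR6+ (adjusted p = 0.0169) and -0.81 ± 0.19 over dermal Sca1+ ILCs (adjusted p = 0.0215). The dermal CCR6+ call was lost without epidermal replicate 2 or dermal CCR6+ replicate 2 (adjusted p = 0.0535 and 0.141), and the dermal Sca1+ call without epidermal replicate 2 or 3 (adjusted p = 0.0639 and 0.0532) or either dermal Sca1+ library (adjusted p = 0.12 and 0.113).

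Hspb1, a small heat shock protein that holds unfolded proteins and is also made by keratinocytes of the epidermis, went the other way, with 104, 533 and 350.1 CPM in epidermal, 81.1 and 51.7 CPM in dermal CCR6+, 97.01 and 68.96 CPM in dermal Sca1+ and 85.5, 73.5 and 51.96 CPM in subcutaneous ILCs. Epidermal replicates 2 and 3 were far above all other libraries, and replicate 1 was only slightly above the highest of them. For Hspb1 the log2 fold change was 2.23 ± 0.49 over subcutaneous (adjusted p = 0.00992), 2.31 ± 0.58 over dermal CCR6+ (adjusted p = 0.0426) and 1.99 ± 0.57 over dermal Sca1+ ILCs (adjusted p = 0.0493). The summed keratinocyte markers were also lowest in replicate 1 among the epidermal libraries, with 3151 CPM in replicate 1 against 8666 and 8627 CPM in replicates 2 and 3, and their part in the Hspb1 difference was not tested. The dermal CCR6+ and dermal Sca1+ calls were lost in each leave-one-out fit except that without epidermal replicate 1 (adjusted p up to 0.237 and 0.227), and the call against subcutaneous ILCs held in all of them.

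Hspd1 and Hspe1 encode HSP60 and HSP10, the chaperonin of mitochondria, and neither was called. Hspd1 averaged 129 ± 33.1 CPM in epidermal and 180.3 ± 20.8 CPM in subcutaneous ILCs (SD, n = 3 each; log2 fold change -0.48 ± 0.21, adjusted p = 0.146). Hspe1 averaged 45.7 ± 10.3 CPM in epidermal and 55.4 ± 9.45 CPM in subcutaneous ILCs (-0.28 ± 0.23, adjusted p = 0.462). The 2 genes start head to head and overlap, so reads at their shared start cannot be told apart without strand. The RefSeq promoter windows of both genes hold a fuller heat shock element, GAANNTTC followed by NNGAA, on both strands. The matches of the 2 windows fall on the same bases, so they are 1 shared site. The element was found in the windows of no other member and in 0.466% of all promoter windows. The 30 bases around the site are shown because neither gene that shares it was called, with the overlapping elements in capitals.
Hspe1 (chr1:55088053-55088082, plus strand): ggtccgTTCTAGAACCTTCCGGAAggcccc

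Dermal CCR6+ ILCs had 6 members lower than subcutaneous ILCs and none higher, where 3.71% of all genes were called lower and 3.75% higher. These were Jun, Egr1, Myc, Hspa1a, Hspa1b and Dnaja1. The members' median log2 fold change was -0.51, against -0.08 over all genes. None of the 6 was called without dermal CCR6+ replicate 2 or without subcutaneous replicate 1, and 3 were called without dermal CCR6+ replicate 1. Libraries did not overlap for 19 lower members and 0 higher ones, against 23.5% and 19.8% of all genes tested. Between these groups 3 of 10 fibroblast, 9 of 13 macrophage and dendritic cell and 5 of 5 simple epithelium markers were lower in dermal CCR6+ ILCs. Also lower were 2 of 8 mast cell and basophil and 1 of 4 tested B cell markers. Higher were 9 of 11 keratinocyte and 1 of 8 T cell markers. The part of these cells was not tested.

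Dermal CCR6+ against dermal Sca1+ ILCs gave 0 called members by edgeR, with 0.346% of all genes called lower and 0.296% higher. DESeq2 called 1 member, Myc, among 557 genes called in all, and limma on TPM called 0 members among 151. Dermal Sca1+ against subcutaneous ILCs also gave 0 by edgeR, with 0.993% of all genes called lower and 1.21% higher. DESeq2 called 4 members as lower, Jun, Egr1, Hspa1a and Hspa1b, among 1193 genes called in all. With limma on TPM it was 0 members among 891. Of all genes called there, 54.9% were higher, against 40.7% with DESeq2 and 39.96% with limma. The members' median log2 fold change was -0.24 in the first of these comparisons and -0.30 in the second, and the medians of all genes were -0.01 and -0.03. Libraries did not overlap for 12 lower members and 1 higher one between the dermal groups, against 20.2% and 19.3% of all genes, and for 13 lower and 2 higher members between dermal Sca1+ and subcutaneous ILCs, against 18.3% and 15.7%. A missed threshold with 2 libraries of either dermal group does not show equal levels.

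Replicates of a group were not alike in these genes. For the immediate early genes, the same replicate number was high in the epidermal and subcutaneous groups. The 21 immediate early genes summed to 11702, 6407 and 6318 CPM in epidermal, 13655 and 14309 CPM in dermal CCR6+, 16935 and 15202 CPM in dermal Sca1+ and 25535, 14605 and 19201 CPM in subcutaneous libraries. Every epidermal library was below every library of the other groups, and replicate 1 was highest in the epidermal and the subcutaneous group. Epidermal replicate 1 had the highest level of its group in 16 of the 21 genes, and subcutaneous replicate 1 in 17 of 21. The chaperone genes summed to 6892, 5227 and 5179 CPM in epidermal, 7876 and 9166 CPM in dermal CCR6+, 9941 and 9674 CPM in dermal Sca1+ and 11027, 11501 and 10073 CPM in subcutaneous libraries. The ratio of the highest to the lowest epidermal library had a median of 1.95 over the immediate early genes, with the widest for Fosl1, Nr4a1 and Nr4a3, and one of 1.57 over the chaperone genes. In the subcutaneous group these medians were 1.50 and 1.39.

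The numbers in the deposited names formed 3 runs, 1 to 4, 5 to 8, and the pair 17 and 20, and epidermal and subcutaneous replicate 1 were 17 and 20. The labels do not say what the runs stand for. Within each run the epidermal library had lower levels than the subcutaneous one in 32 of 33 members, with a median log2 difference of -1.38 in the first run, -1.50 in the second and -1.24 in the third. Within the first and second run the epidermal library was lower than the dermal CCR6+ one in 30 and 26 members, and lower than the dermal Sca1+ one in 30 and 29.

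**Figure D4:**
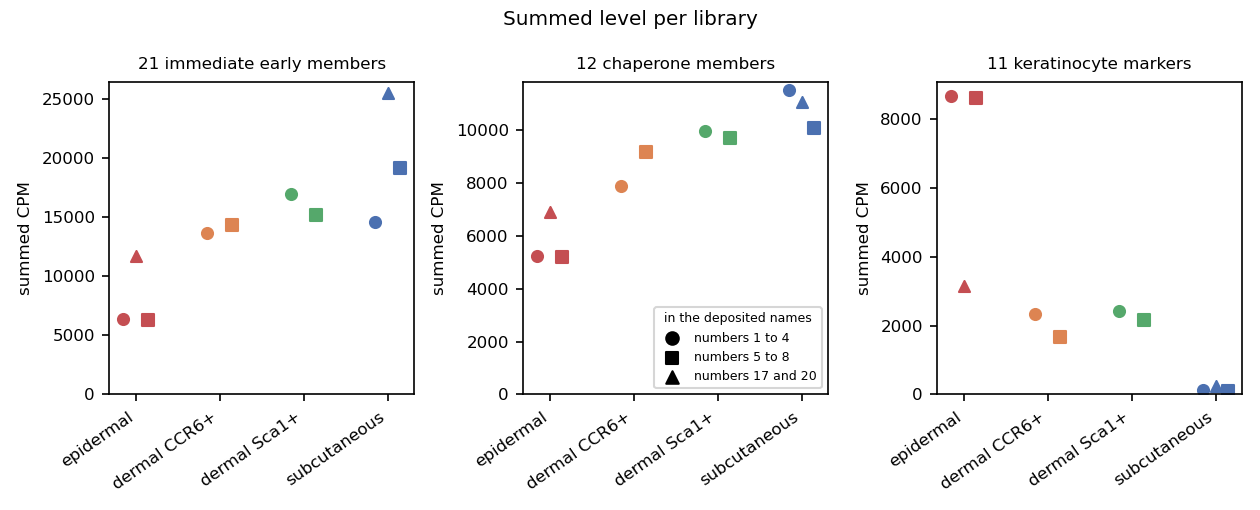
Summed CPM per library (y axis, from 0) by group (x axis) for the 21 immediate early genes, the 12 chaperone genes and the 11 keratinocyte markers, with marker shapes for the runs of numbers in the deposited names. The triangle of the pair 17 and 20 is the top immediate early value in epidermal (11702 CPM) and subcutaneous ILCs (25535 CPM), and it is the lowest keratinocyte value among epidermal libraries (3151 CPM).

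Genes outside the 33 were counted in lists of known role, for epidermal against subcutaneous ILCs unless stated. That comparison called 13.3% of all genes tested as lower and 6.87% as higher. Of 32 other immediate early and dissociation-linked genes, 22 were lower and 2 higher in epidermal ILCs, with a median log2 fold change of -1.56. Among the lower ones, Nfkbia, the inhibitor of NF-κB, had a mean of 1371 CPM in epidermal against 3634 CPM in subcutaneous ILCs (log2 fold change -1.41 ± 0.28, adjusted p = 0.00566). The 2 higher ones were Rgs1, a brake on chemokine receptor signals, with 1732 CPM in epidermal against 649 CPM in subcutaneous ILCs (log2 fold change 1.42 ± 0.37, adjusted p = 0.021), and Dusp2, a phosphatase of MAP kinases, with 125 CPM against 27.2 CPM (log2 fold change 2.20 ± 0.39, adjusted p = 0.00263). Both ran against the direction of most genes of their list.

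Of 16 other AP-1 and related bZIP genes, 6 were lower and 2 higher in epidermal ILCs, against 13.3% and 6.87% of all genes tested. Crem, a cAMP-responsive factor, averaged 66.6 CPM in epidermal, 1338 CPM in dermal CCR6+, 1102 CPM in dermal Sca1+ and 608 CPM in subcutaneous ILCs, so its dermal groups were the highest. Crem passed the test over dermal CCR6+ (log2 fold change -4.33 ± 0.35, adjusted p = 0.000107), over dermal Sca1+ (log2 fold change -4.05 ± 0.35, adjusted p = 7.15e-05) and over subcutaneous ILCs (log2 fold change -3.19 ± 0.32, adjusted p = 8.82e-05). Maf, a bZIP factor of cytokine gene control, averaged more in epidermal ILCs, 179 CPM, against 55.3 CPM in subcutaneous ILCs (log2 fold change 1.69 ± 0.26, adjusted p = 0.00125).

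Of 15 lymphocyte activation genes, 8 were lower and 3 higher in epidermal ILCs, against 13.3% and 6.87% of all genes tested. Il2ra, the high-affinity chain of the IL-2 receptor, averaged 87.7 CPM in epidermal against 931 CPM in subcutaneous ILCs (log2 fold change -3.41 ± 0.18, adjusted p = 3.74e-06), and Nfkbiz, an inducible NF-κB cofactor, 159 CPM against 1347 CPM (log2 fold change -3.08 ± 0.52, adjusted p = 0.0022). The co-stimulatory receptor Icos went the other way, with 1293 CPM in epidermal against 723 CPM in subcutaneous ILCs (log2 fold change 0.84 ± 0.18, adjusted p = 0.00895), although it was lower in epidermal than in dermal CCR6+ ILCs (log2 fold change -1.79 ± 0.20, adjusted p = 0.000552). Activation genes thus had called members in both directions.

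Among chaperone genes outside the 33 the counts were small, and 13.3% of all genes tested were lower and 6.87% higher. Of 28 other cytosolic chaperone and HSF1 pathway genes, 4 were lower and 2 higher in epidermal ILCs, near those shares. Their median log2 fold change was 0.04. Dnajb6, a J-domain gene, averaged 117 CPM in epidermal against 300.3 CPM in subcutaneous ILCs (log2 fold change -1.36 ± 0.19, adjusted p = 0.000578), and Hspb8, a small heat shock gene, 34.0 CPM against 9.55 CPM (log2 fold change 1.83 ± 0.42, adjusted p = 0.012). Of 19 genes of the unfolded protein response of the endoplasmic reticulum, 3 were lower and 2 higher. Of 10 other mitochondrial chaperone and protease genes, none was called, and their median log2 fold change was -0.14.

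**Figure D5:**
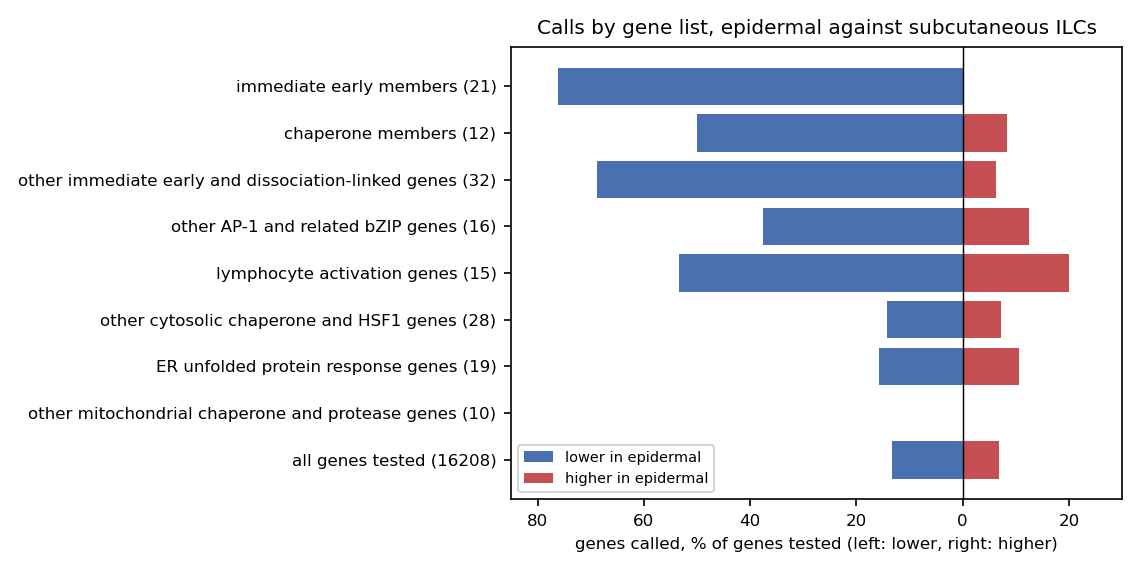
Share of the genes tested that were called in epidermal against subcutaneous ILCs (x axis, percent, lower to the left and higher to the right) by gene list, with the number tested in brackets. Of the immediate early members 16 of 21 were lower, of the other cytosolic chaperone genes 4 of 28, and of all genes tested 13.3%.

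Among cell type markers in the same comparison, 10 of 10 fibroblast, 12 of 13 macrophage and dendritic cell, 8 of 8 endothelial, 7 of 8 mast cell and basophil and 5 of 5 simple epithelium markers were lower in epidermal ILCs. All 11 keratinocyte markers were higher, and none of the 8 T cell markers was called. Of the 4 B cell markers tested 2 were lower, and of the 3 neutrophil markers tested 2 were lower. Against dermal CCR6+ ILCs 8 of 10 fibroblast and 7 of 13 macrophage and dendritic cell markers were lower, and against dermal Sca1+ ILCs 10 of 10 and 11 of 13. Between dermal Sca1+ and subcutaneous ILCs, where no member was called, other cell type markers still differed. All 5 simple epithelium, 2 of 13 macrophage and dendritic cell and 1 of 4 tested B cell markers were lower in dermal Sca1+ ILCs. There 8 of 11 keratinocyte markers were higher, and none of the 10 fibroblast markers was called. No endothelial, mast cell and basophil, T cell or neutrophil marker was called either.

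Promoter windows were available for 25 of the 33 members, in 36 windows of 250 bases. The CRE core TGACG was found on either strand in 18 of the 36 windows, from 15 members, and in 17.8% of all 32851 windows. The full CRE TGACGTCA, which holds the core on both strands, was in the windows of Btg2 and Maff (1.55% of all windows), and the TRE TGANTCA, the AP-1 site, in those of Hspa5 and Zfp36l1 (6.75%). The CArG box, bound by serum response factor, was found in 5 of the 36 windows, from Egr2 and Zfp36 (1.47% of all windows). The EGR site GCGTGGGCG was in 3 windows, from Dnaja1 and Maff (0.536%), and the CCAAT box in 16, from 12 members (33.8%). Members with the CRE core included called genes (Fosb, Nr4a2, Nr4a3, Atf3, Maff, Btg2, Dnajb1) and genes never called (Fos, Egr2, Nr4a1, Hspa5). Window counts are not counts of separate sites, since some windows overlap. Several Egr2 windows hold the CArG box on the same bases, and the Dnaja1 windows with the EGR site share its bases. Hspd1 and Hspe1 share the bases of their CRE core. A match is a run of letters in the window and no evidence of binding.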

How the data were processed

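Per the labels' protocols, column-purified RNA of sorted ILCs was amplified with a SMART-Seq ultra low input kit and tagged with Nextera XT, which keep no strand. Reads were processed with Trimmomatic, STAR and RSEM on mm10, per the submitters' processing notes. Versions, strand setting and annotation were not given in the sources used here. The authors deposited RSEM estimated counts (expected_count) per gene, of which between 7.20% and 8.39% per library were not whole, and TPM, which sums to the same total in every library. The deposited expected counts were rounded and tested with edgeR 4.0.16 (R 4.3.3) in 1 quasi-likelihood model of 4 groups over 10 libraries, with TMM scaling, genes kept by filterByExpr at a minimum count of 10 (16208 genes), 2-sided tests and Benjamini-Hochberg adjustment over all of them, called under 0.05. Every adjusted p comes from this test unless another tool is named, and CPM use TMM library sizes. Errors of fold changes are approximate SE, the absolute log2 fold change over the square root of the test's F statistic. The TPM deposited by the authors were used for shares and ranks. On simulated counts the procedure was tested before use, for epidermal over subcutaneous ILCs. It recovered 20% of 2-fold, 82% of 4-fold, 90% of 8-fold and 100% of 16-fold changes. Most 2-fold changes were thus missed in the simulation, where 50 of 15636 genes were changed at each fold. In the data 3268 genes were called in that comparison, so the shares recovered there can differ from the simulated ones. A missing call does not show equal levels. The members and lists were chosen with earlier results of these data known. Genes outside the 33 were drawn from the 2 called genes per list, comparison and direction with the highest mean CPM in the higher group. Symbols matched 47224 of 47643 gene IDs, and coordinates and promoters are those of GRCm38 (mm10). Alternatives were DESeq2 1.42.0, its size factors in edgeR, limma 3.58.1 on log2(TPM + 1), no filter beyond 1 count, the 2 groups compared alone, replicate blocks and leaving out each library, where a lone dermal library is assumed to vary like the other groups.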

Additional observations from a re-analysis of the deposited data

How the results depend on the processing

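Of the 58 member calls over the 6 comparisons, none reversed in any setting. DESeq2 and the lack of a filter lost 0 of them, DESeq2's size factors and the replicate block by runs of deposited numbers 2 each, limma 6, the replicate block by title number 9, the fits of only the 2 groups compared 16, and leaving out 1 library between 2 and 16. The number of members called higher in epidermal ILCs, 1 (Hspb1), became 0 against dermal Sca1+ ILCs with DESeq2's size factors, and 0 against both dermal groups with only the 2 groups compared and with the replicate block by title number. The number lower became 4 in place of 12 against dermal CCR6+ ILCs with only the 2 groups compared. For dermal CCR6+ over dermal Sca1+ ILCs it became 1 with DESeq2 and with no filter. For dermal Sca1+ over subcutaneous ILCs it became 4 with DESeq2, 4 with no filter, 3 with the replicate block by title number and 1 with the block by runs. For dermal CCR6+ over subcutaneous ILCs it became 10 with no filter. The cause was not tested. Leaving out 1 library moved the count of lower members between 17 and 27 against subcutaneous, 6 and 12 against dermal CCR6+ and 9 and 20 against dermal Sca1+ for epidermal ILCs, and between 0 and 7 for dermal CCR6+ over subcutaneous ILCs. The count of higher members lay between 0 and 1 against either dermal group. Over all genes, DESeq2 and no filter called 2001 and 2028 (1001 in the main test) for epidermal over dermal CCR6+, 2919 and 2918 (1848) over dermal Sca1+, 557 and 647 (104) for dermal CCR6+ over dermal Sca1+, 1193 and 1328 (357) for dermal Sca1+ over subcutaneous, and 2319 and 2292 (1209) for dermal CCR6+ over subcutaneous ILCs. In the last 2 comparisons limma called 891 and 1978. With only the 2 groups compared the counts were 618, 47 and 560 for epidermal over dermal CCR6+, dermal CCR6+ over dermal Sca1+ and dermal Sca1+ over subcutaneous ILCs, and with the replicate block by title number 64 and 203 for the last 2 of these. Without 1 library they lay between 2280 and 3233 for epidermal over subcutaneous, 732 and 1081 over dermal CCR6+, 1192 and 1865 over dermal Sca1+, 35 and 155 for dermal CCR6+ over dermal Sca1+, 157 and 420 for dermal Sca1+ over subcutaneous and 435 and 1372 for dermal CCR6+ over subcutaneous ILCs. Same-numbered epidermal and subcutaneous libraries deviated from their group means with correlations of 0.114, 0.0174 and -0.0219. The labels name no pairing, and the main test treated the libraries as unpaired. So few correlations cannot exclude a pairing. In these groups the title numbers and the runs of deposited numbers join the same libraries.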
